A study of Mus musculus with 7 samples.

Results

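The genes described here are those of ion channels and of gap junction connexins, the proteins that carry current across the cardiomyocyte membrane and from cell to cell. They were chosen by symbol alone, with Cacna1c left out. Their names start with Kcn, Cacn, Asic, Clcn, Gja or Gjc, or with Hcn, Scn, Trpc, Trpm or Trpv and a digit. The rule gave 131 of the 14641 genes in the counts. They comprise 66 potassium channel genes, 18 calcium, 14 TRP, 10 sodium, 8 chloride, 7 gap junction, 4 acid-sensing and 4 pacemaker genes. All but Kcnb2, which had 1 count over the 7 libraries, were tested, so that 130 genes entered the comparison. The rule also takes in auxiliary subunits and Trpc4ap, which encodes an adaptor protein and not a channel.

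The hearts came from male C57BL/6J mice, 4 non-transgenic (NTG) and 3 mNrf2-TG, and each mouse gave 1 RNA sequencing library. In mNrf2-TG mice the αMHC promoter, which is active in cardiomyocytes, drives the full-length mouse Nrf2, and no other allele or agent was named for either group. The numbers of the libraries are 1 to 4 (NTG) and 17 to 19 (mNrf2-TG). The labels give an age of 6 months for the mNrf2-TG libraries and no age for the NTG libraries. For the mice of the study, the methods give 6 to 7 months and the series design text gives 7 to 8 months. Library totals on listed genes lay between 6534684 and 8405857 counts, and 0.339% to 0.391% of them (23531 to 31530) fell on channel and connexin genes. For Nfe2l2, the gene of Nrf2, the Log2FC was 3.36 with a standard error (SE) of 0.18 and an adjusted p of 2.96e-06, which fits the labels. The tissue is labelled as whole heart lysate, but Myl7, the atrial myosin light chain, had 0 to 4 counts per library. In whole tissue, fewer cells of a type and less RNA per cell cannot be told apart.

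In the working cardiomyocyte, a sodium current starts the action potential, a calcium current holds its plateau and links it to contraction, and several potassium currents end it and set the resting potential. Most of these channels are a pore-forming subunit joined to auxiliary subunits, which set how many channels reach the membrane and how they gate. Connexins join neighbouring cells at the intercalated disc so that the impulse can pass between them, and HCN channels carry the pacemaker current of the conduction system.

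Nrf2 is a transcription factor that binds the antioxidant response element, whose core is written TGACNNNGC. These letters were searched on both strands of the RefSeq promoter windows (GRCm38.p6, 250 bases before to 50 after each start), which cover 97 of the 131 genes with 135 windows. They were found in 18 of the 135 windows (13.33%), against 12.39% of all 32851 windows and 14.05% of the 14879 windows of genes in the counts. Among the genes with an adjusted p under 0.05, 1 of the 8 higher genes with a window (Kcnj6) and 0 of the 8 lower genes held the letters, and 15 of the 81 genes that were not called did. A match is a description of the letters and not a measured site. The 250 bases before both starts of Kcnj6 are shown because they hold a match, given in capitals as TGACAGCGC on the strand of the gene and as GCAGAGTCA, the reverse complement form. The windows of Kcnip2 and Cacna2d3, which had the smallest adjusted p-values among the higher genes, are shown beside them and hold none. All 4 lie on the minus strand and are written 5′ to 3′ in the direction of transcription. For Cacna2d3 and the Kcnj6 window at chr16:94997697-94997946, the next 50 bases occur in a GENCODE M21 transcript of the gene. For Kcnip2 and the Kcnj6 window at chr16:94856691-94856940 they do not.
Kcnj6, chr16:94997697-94997946, match starting 26 bases before the start: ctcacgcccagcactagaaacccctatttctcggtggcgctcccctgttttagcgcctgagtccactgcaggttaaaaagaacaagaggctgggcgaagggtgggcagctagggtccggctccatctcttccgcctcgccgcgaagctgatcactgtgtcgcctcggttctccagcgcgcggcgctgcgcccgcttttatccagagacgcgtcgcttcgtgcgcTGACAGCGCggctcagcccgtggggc
Kcnj6, chr16:94856691-94856940, match starting 197 bases before the start: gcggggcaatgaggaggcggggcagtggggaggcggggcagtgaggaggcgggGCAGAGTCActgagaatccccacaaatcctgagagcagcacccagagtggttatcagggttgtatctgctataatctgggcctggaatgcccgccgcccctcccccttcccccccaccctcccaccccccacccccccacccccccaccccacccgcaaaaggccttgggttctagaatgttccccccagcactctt
Kcnip2, chr19:45816064-45816313: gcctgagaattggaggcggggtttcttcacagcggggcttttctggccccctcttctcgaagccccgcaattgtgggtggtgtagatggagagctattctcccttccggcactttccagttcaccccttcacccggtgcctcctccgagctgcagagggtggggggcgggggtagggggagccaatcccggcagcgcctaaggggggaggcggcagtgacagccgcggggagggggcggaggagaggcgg
Cacna2d3, chr14:29721865-29722114: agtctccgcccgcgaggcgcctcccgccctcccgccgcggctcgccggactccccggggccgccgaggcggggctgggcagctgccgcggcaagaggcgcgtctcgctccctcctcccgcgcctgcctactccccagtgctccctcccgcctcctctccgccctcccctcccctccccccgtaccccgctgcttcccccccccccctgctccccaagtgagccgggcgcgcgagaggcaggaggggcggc

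Compared per length of exon, the potassium channel genes were the most abundant class, with a summed level of 362 CPM per kilobase of exon (CPM per kb, counts scaled to the library and to length) over all libraries. The sums were 94.8 for the sodium channel genes, 55.5 for the connexins, 50.4 for the 18 calcium channel genes counted here, 32.5 for the TRP genes, 27.1 for the chloride channel genes, 10.2 for the HCN genes and 1.52 for the acid-sensing channel genes. Kcnk3, which encodes an acid-sensitive leak channel, had the highest level of single genes at 59.6 CPM per kb. Kcnj11, the pore of the ATP-sensitive channel, stood at 52.5. The level of Kcnip2, an auxiliary subunit of the transient outward current, was 27.5 CPM per kb in NTG and 78.2 in mNrf2-TG, above all other channel and connexin genes in the transgenic hearts. Gja1, which encodes Cx43, the main ventricular connexin, stood at 40.6. At the other end, 43 of the 130 genes tested (33.1%) had a mean count under 10, against 17.5% of all genes tested, and for these only large changes could be detected.

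**Figure D1:**
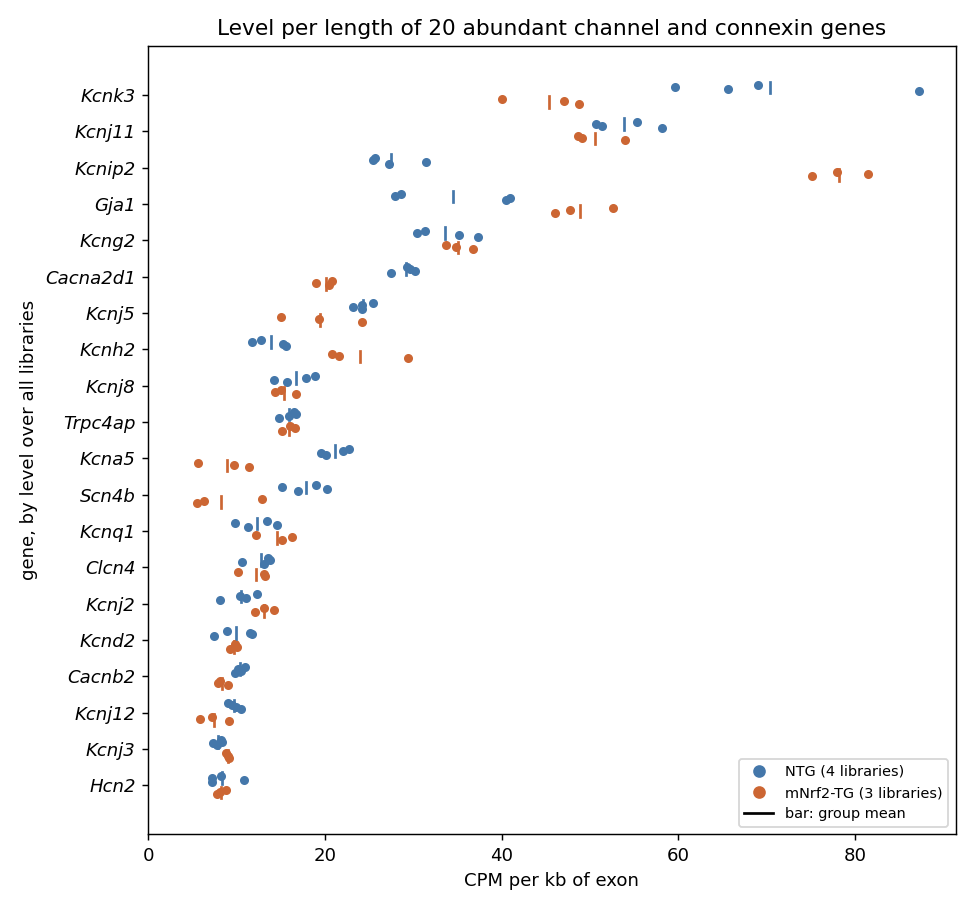
Level per length of 20 abundant channel and connexin genes, in CPM per kb of exon on a linear axis. Points are libraries (4 NTG, 3 mNrf2-TG) and bars are group means. Kcnip2 lies at a mean of 27.5 in NTG and 78.2 in mNrf2-TG, while the points of Kcnj11 overlap between the groups.

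At an adjusted p under 0.05 in edgeR's quasi-likelihood test, 21 of the 130 genes (16.2%) differed between the groups, against 17.2% of all 14637 genes tested, so the share called was close to the background. Of these, 11 were higher in mNrf2-TG, beside 8.48% of all genes, and 10 were lower, beside 8.73%. The number of lower genes was 5 without NTG 1, mNrf2-TG 17 or mNrf2-TG 18 and 6 without NTG 2. Over all genes, the lower calls also dropped, from 1278 to 800 without NTG 1, 792 without NTG 2, 669 without mNrf2-TG 17 and 747 without mNrf2-TG 18. The called changes were often large: 15 of the 21 (71.4%) were beyond 2-fold, against 518 of the 2519 genes called in the whole table (20.6%), where calls beyond 2-fold made up 3.54% of all genes tested. Requiring more than a 2-fold change with an unadjusted p under 0.05, 20 genes (15.4%) passed, beside 5.65% of all genes, with 11 higher (all genes 3.57%) and 9 lower (all genes 2.08%). Among genes with a mean count of 10 or more, 12 of 87 (13.8%) passed these criteria, against 4.38% of 12069. At an unadjusted p under 0.05 alone, 39 genes (30.0%) passed, against 32.2% of all genes. The normalized counts of 35 genes (26.9%) did not overlap between the groups, against 29.7% of all genes, and all 21 called genes were among them. The median Log2FC was 0.007, beside 0.001 for all genes, and it stayed at 0.007 with Asic2 placed at its lower bound. The quartiles were wider than in the whole table, at -0.389 and 0.363 against -0.237 and 0.28. The channel and connexin genes had lower counts, with a median mean count of 23.9 against 123 for all genes. Among genes with a mean count of 10 or more, these medians were 64.9 and 183. At low counts only large changes can be called, and neither the shares beyond 2-fold nor the quartiles were compared at matched counts.

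**Figure D2:**
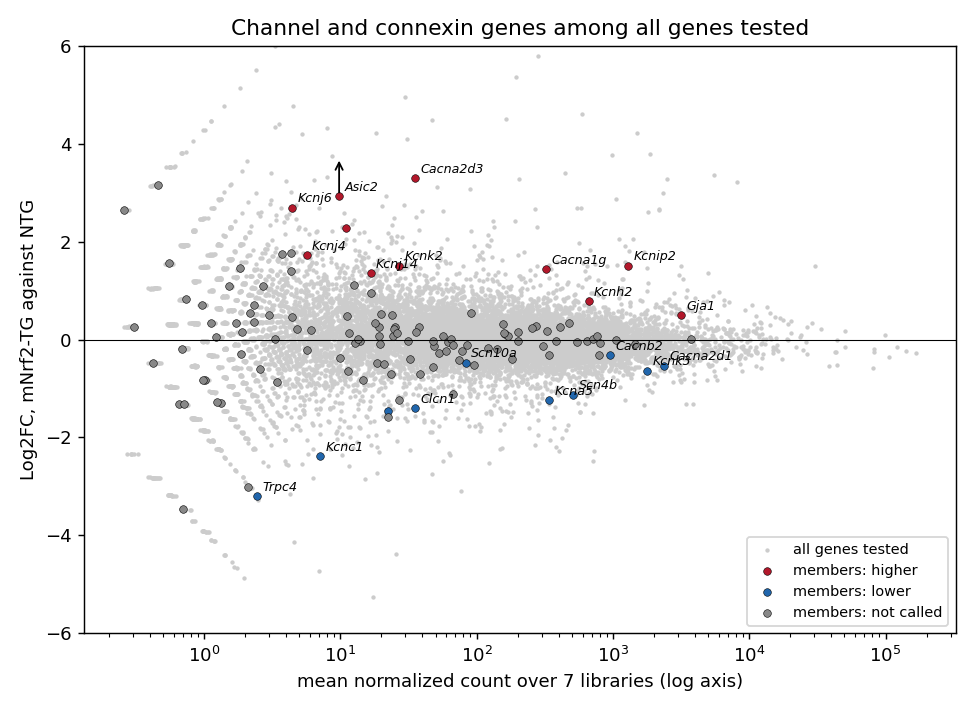
Log2FC of mNrf2-TG against NTG (vertical) against the mean normalized count over the 7 libraries (horizontal, log axis). Small grey points are all genes tested, and larger points are the channel and connexin genes, red where higher and blue where lower at an adjusted p under 0.05. The arrow marks Asic2, drawn at its lower bound because no NTG library had a count.

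The transient outward potassium current shapes the early repolarization of the rodent ventricle. Among its genes, the auxiliary subunit gene Kcnip2 was called, while the pore genes Kcnd2, Kcnd3 and Kcna4 did not pass the test. Kcnip2 (chromosome 19, 45791839 to 45816061, GRCm38) encodes KChIP2, which brings Kv4 channels to the membrane. Its counts were 586, 739, 799 and 717 in NTG 1 to 4 and 1896, 2164 and 2168 in mNrf2-TG 17 to 19. Every mNrf2-TG library was far above every NTG library, and the spread within each group was small. The normalized counts rose from 719 ± 73.0 (SD, n = 4) to 2047 ± 82.3 (SD, n = 3), a Log2FC of 1.51 (SE 0.0854, adjusted p = 5.23e-06 from edgeR), the smallest adjusted p among the channel and connexin genes. The call held in all 14 alternatives, with a Log2FC from 1.48 to 1.58. Of the pore genes it works with, Kcnd2 had 301, 497, 439 and 291 counts in NTG and 355, 398 and 394 in mNrf2-TG (Log2FC -0.03, standard error 0.15), and Kcnd3 had a Log2FC of 0.08 (SE 0.12). Within each library, the level per length of Kcnip2 relative to the sum of Kcnd2 and Kcnd3 was 1.86 to 2.68 in NTG against 6.35 to 6.60 in mNrf2-TG. Kcna4, the pore of the slow component, had 10, 7, 8 and 22 counts in NTG and 14, 27 and 30 in mNrf2-TG (Log2FC 0.95, adjusted p = 0.145), and it was called only without NTG 4, at 0.0336. The ranges of Kcna4 overlap through NTG 4.

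The delayed rectifier genes moved in different directions. Kcna5 (chromosome 6, 126532551 to 126535412), the pore of the ultrarapid delayed rectifier, had 426, 528, 410 and 434 counts in NTG and 114, 212 and 270 in mNrf2-TG. All transgenic libraries lay well below the lowest control, and mNrf2-TG 17 was the lowest. Normalized counts fell from 455 ± 32.5 to 192 ± 62.9 (SD, n = 4 and 3), a Log2FC of -1.24 (SE 0.19, adjusted p = 0.00267 from edgeR). Kcnh2 (chromosome 5, 24319589 to 24351604) encodes HERG, the pore of the rapid delayed rectifier. It had 405, 476, 542 and 571 counts in NTG and 705, 798 and 1183 in mNrf2-TG, with mNrf2-TG 19 the highest and no overlap. Its Log2FC was 0.79 (SE 0.14, adjusted p = 0.00562), from 505 ± 69.2 to 873 ± 175 normalized counts. Kcnq1, the pore of the slow delayed rectifier, had a Log2FC of 0.25 (SE 0.14, adjusted p = 0.260). Its auxiliary subunit Kcne1 had 44, 56, 123 and 124 counts in NTG and 36, 30 and 58 in mNrf2-TG. NTG 3 and 4 were well above NTG 1 and 2, and the ranges of both groups overlap after normalization. The Log2FC of Kcne1 was -1.11 (SE 0.38, adjusted p = 0.0720), and its adjusted p ranged from 0.0251 with DESeq2's Wald test to 0.207 over the alternatives.

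Of the 13 inward rectifier genes, Kcnj14, Kcnj4 and Kcnj6, all of low counts, were higher in mNrf2-TG and the others were not called. Kcnj15, with 15 to 25 counts per library and a mean count of 19.1 against 16.6 for Kcnj14, had a Log2FC of 0.06 (SE 0.28). Kcnj2 and Kcnj12 encode the main pores of the current that holds the resting potential. Kcnj2 had 332 to 475 counts in NTG against 499 to 592 in mNrf2-TG (Log2FC 0.33, adjusted p = 0.105), with overlap after normalization. Kcnj12 had 162 to 218 and 124 to 208 (Log2FC -0.39, adjusted p = 0.0851), and it was called only without mNrf2-TG 19, at 0.0253. Their relative Kcnj14 had 12, 10, 9 and 8 counts in NTG and 30, 24 and 23 in mNrf2-TG (Log2FC 1.35, standard error 0.29, adjusted p = 0.0128). Every transgenic library exceeded every control, but without mNrf2-TG 17 the adjusted p was 0.0560, and 30.8% of the 50-base stretches in its transcripts also occur in Gm5522. Kcnj4 had 3, 3, 3 and 2 counts against 6, 14 and 9 (Log2FC 1.73, adjusted p = 0.0277), and DESeq2's Wald test (0.0846) and 5 of 7 fits without a single library (NTG 1, 2 or 4, or mNrf2-TG 18 or 19) did not call it, with an adjusted p of up to 0.110. Kcnj6, a G protein-gated channel gene, had 0, 3, 1 and 1 counts in NTG and 5, 12 and 10 in mNrf2-TG, in total 5 against 27, a ratio of 7.01 with a 95% counting interval of 2.66 to 23.3. Its adjusted p was 0.0178 and rose to 0.0674 without mNrf2-TG 18 and to 0.0521 without mNrf2-TG 19, and its fitted Log2FC of 2.70 was 3.44 without NTG 2. The cardiac pair Kcnj3 and Kcnj5, which carry the acetylcholine-gated current of the atrium, had Log2FC values of 0.18 (adjusted p = 0.133) and -0.31 (adjusted p = 0.135). Kcnj5 was called only without mNrf2-TG 19, at 0.0238. The ATP-sensitive pores Kcnj11 and Kcnj8 did not pass the test, with a Log2FC of -0.09 (SE 0.0758) and -0.12 (SE 0.11).

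Among the genes of background potassium channels, Kcnk3 (acid-sensitive channel) fell and Kcnk2 (stretch-sensitive channel) rose. Kcnk3 had 1796, 1983, 1905 and 2623 counts in NTG and 1115, 1430 and 1609 in mNrf2-TG. NTG 4 stood above the other controls, and all transgenic libraries stayed below the lowest control. The normalized counts fell from 2106 ± 356 to 1356 ± 138, a Log2FC of -0.63 (SE 0.13, adjusted p = 0.00931 from edgeR). Kcnk2 had 16, 12, 21 and 10 counts in NTG and 40, 39 and 52 in mNrf2-TG. These did not overlap, and its Log2FC was 1.51 (SE 0.28, adjusted p = 0.00672). Per length, Kcnk2 stayed far below Kcnk3 in both groups, at 0.00307 to 0.00887 of its level in NTG against 0.0219 to 0.0289 in mNrf2-TG. Kcnk2 shares 604 exonic bases with A430027H14Rik and Kcnk3 shares 229 with Gm9899, both on the opposite strand, and the use of strand in counting is not given in the sources used here. Kcnk1 had 14 counts over the NTG libraries and 1 over the mNrf2-TG libraries (adjusted p = 0.103).

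Kcnc1, a Kv3 gene that encodes a fast channel best known from neurons, was scarce and lower in mNrf2-TG. It had 11, 12, 13 and 7 counts in NTG and 3, 3 and 0 in mNrf2-TG (Log2FC -2.39, standard error 0.62, adjusted p = 0.0270). The groups did not overlap, but the call rests on few reads. Kcnc1 was not called without NTG 1, NTG 2 or any single mNrf2-TG library, with an adjusted p of up to 0.0650 and a Log2FC of -1.78 without mNrf2-TG 19. The summed normalized counts of the 6 neuron and Schwann cell markers measured were 112 to 166 in NTG against 122 to 178 in mNrf2-TG. Of these markers, 0 of the 6 were called. Of the remaining potassium channel genes, Kcnab3 (Log2FC 1.74, adjusted p = 0.0536), Kcna7 (-0.51, adjusted p = 0.0631) and the calcium-activated Kcnn2 (0.55, adjusted p = 0.0928) came closest to the threshold. Kcng2, a modulatory subunit that forms no channel alone and the sixth most abundant gene per length, had a Log2FC of 0.06 (SE 0.0868). Kcnma1, the large-conductance calcium-activated pore, had 0 to 3 counts per library, too few to show a change. In all, 6 potassium channel genes were higher, 4 were lower and 55 were not called. The share called was 15.4%, beside 17.2% of all genes. By family, the higher genes were 3 of 13 in Kcnj and 1 each in Kcnip, Kcnh and Kcnk, and the lower genes included 1 of 7 each in Kcna and Kcnk. Over all genes, 8.48% were higher and 8.73% were lower. None of the genes tested in Kcnab, Kcnd, Kcne, Kcng, Kcnma, Kcnmb, Kcnn, Kcnq, Kcnrg, Kcns, Kcnt and Kcnv was called.

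**Figure D3:**
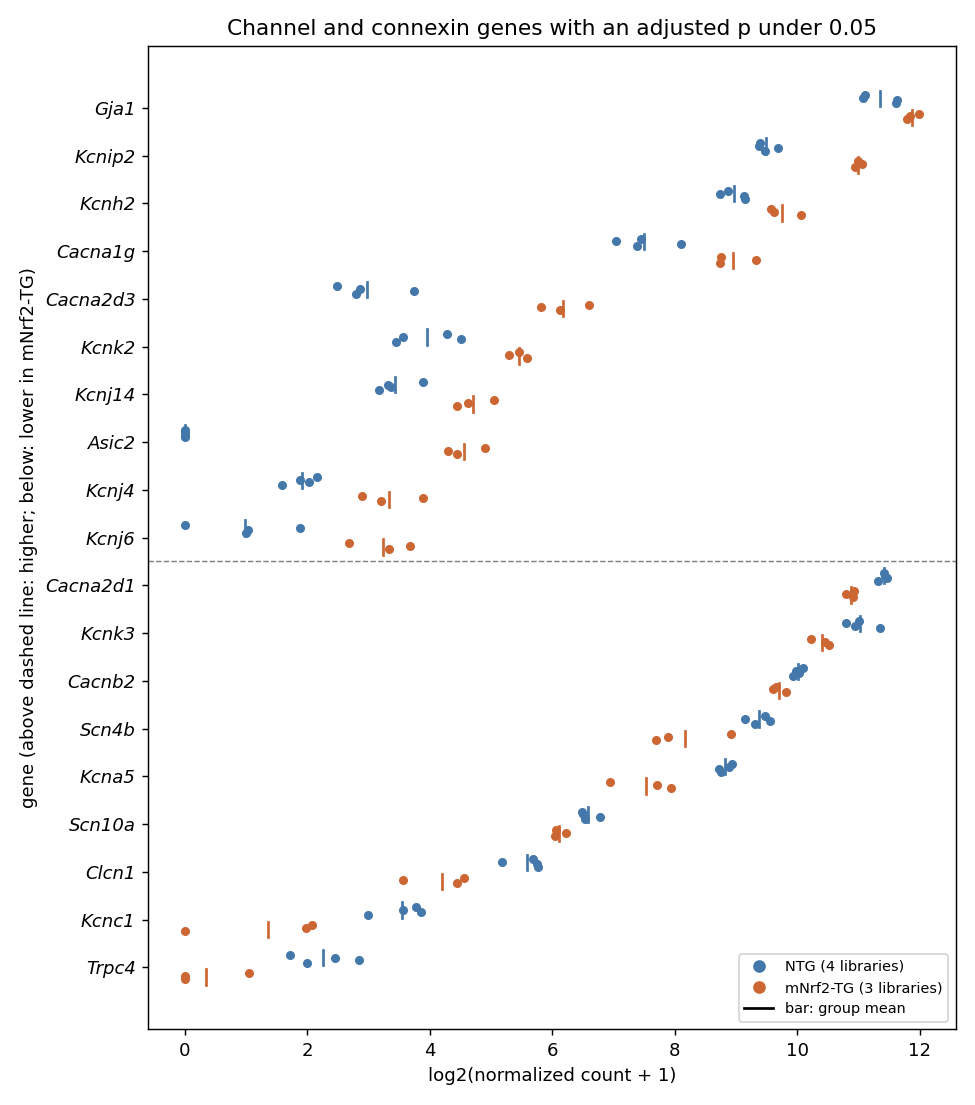
Normalized counts per library, as log2(normalized count + 1), of 19 channel and connexin genes with an adjusted p under 0.05, with 10 higher ones above the dashed line and 9 lower ones below it. Points are libraries and vertical bars are group means. The points of NTG and mNrf2-TG do not overlap for any of the 19, and genes at the left, such as Trpc4 and Kcnj6, rest on few counts.

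Of the 10 sodium channel genes, Scn4b and Scn10a fell and none rose. Scn4b (chromosome 9, 45138395 to 45154152) encodes the β4 subunit, which modulates the gating of sodium channels. It had 619, 630, 733 and 640 counts in NTG and 448, 240 and 226 in mNrf2-TG. All transgenic libraries lay below the controls, but mNrf2-TG 17 stood well above mNrf2-TG 18 and 19. The normalized counts fell from 668 ± 83.2 to 308 ± 152, a Log2FC of -1.12 (SE 0.25, adjusted p = 0.0153 from edgeR). Without mNrf2-TG 18 its adjusted p was 0.0618, without mNrf2-TG 19 it was 0.0507, and without mNrf2-TG 17 it was 0.000476. The β subunit genes Scn2b and Scn3b had 2 to 17 counts per library and were not called.

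Scn10a encodes a sodium channel best known from sensory neurons, and it lies on chromosome 9 (119608456 to 119719322, GRCm38). It had 77, 100, 106 and 92 counts in NTG and 61, 75 and 72 in mNrf2-TG (Log2FC -0.47, standard error 0.13, adjusted p = 0.0345). The counts of this gene did not overlap after normalization, but DESeq2's Wald test (0.0785) and all 7 fits without a single library (0.0522 to 0.106) did not call it. Scn4a, the sodium channel of skeletal muscle, had 321 to 415 counts in NTG against 289 to 325 in mNrf2-TG (Log2FC -0.31, adjusted p = 0.0900), and Scn7a had a Log2FC of 0.24 (adjusted p = 0.418). Of 4 conduction system markers, the 2 measured, Tbx3 and Cntn2, were lower. Their summed normalized counts were 162 to 228 in NTG against 105 to 130 in mNrf2-TG. Hcn4 (Log2FC -0.12) and Gja5 (0.07), channel and connexin genes of the conduction system, were not called. The part of the conduction system in the decreases of Scn10a and Scn4b was not tested.

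Among the acid-sensing channel genes, which encode proton-gated sodium channels, Asic2 had 0 counts in every NTG library and 27, 19 and 23 in mNrf2-TG. Taking 3 counts per library as the floor, Asic2 was at least 7.63-fold higher in mNrf2-TG (adjusted p = 0.00122, called in all 14 alternatives). The exons of Asic2 (chromosome 11, 80880169 to 81968457) overlap no other annotated gene, and none of its 4213 stretches of 50 bases occurs in another gene's transcripts. Asic1, the most abundant of the family, was level at 48.1 ± 10.6 and 47.4 ± 8.03 normalized counts, and Asic3 and Asic4 had 0 to 3 counts per library.

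Of the 18 calcium channel genes, 2 were higher and 2 were lower, a T-type pore and auxiliary α2δ and β subunits. The share called was 22.2%, beside 17.2% of all genes. Cacna1g (chromosome 11, 94408391 to 94474198), a pore of the low-voltage-activated T-type current, had 151, 145, 265 and 167 counts in NTG and 403, 650 and 472 in mNrf2-TG. NTG 3 was the highest control and still below every transgenic library. The normalized counts rose from 186 ± 61.2 to 501 ± 121, a Log2FC of 1.43 (SE 0.23, adjusted p = 0.00342 from edgeR). Cacna1h, the other T-type pore of the heart, had 59 to 109 counts in NTG against 49 to 88 in mNrf2-TG (Log2FC -0.42, standard error 0.23, adjusted p = 0.228). The ratio of Cacna1g to Cacna1h per length was 1.48 to 4.33 in NTG against 5.17 to 12.8 in mNrf2-TG. Cacna1d, an L-type pore of pacemaker cells, and Cacna1s, the L-type pore of skeletal muscle, had Log2FC values of 0.25 (SE 0.29) and 0.15 (SE 0.19).

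The genes of the α2δ subunits, which carry calcium channels to the membrane, moved in opposite directions. Cacna2d1 (chromosome 5, 15934691 to 16374511), the abundant cardiac form, had 2385, 3077, 2740 and 2583 counts in NTG and 1809, 1801 and 2112 in mNrf2-TG. The normalized counts fell from 2727 ± 109 to 1879 ± 92.0, a Log2FC of -0.54 (SE 0.0673, adjusted p = 0.000968 from edgeR), and no transgenic library reached the controls. Cacna2d3 (chromosome 14, 28904943 to 29721864) had 4, 7, 12 and 6 counts in NTG and 89, 56 and 76 in mNrf2-TG. The lowest transgenic library was several times above the highest control, and the Log2FC was 3.30 (SE 0.32, adjusted p = 0.000232), the largest of any called gene here that had counts in every library. Even so, Cacna2d3 reached only 0.0443 to 0.0701 of the level of Cacna2d1 per length in mNrf2-TG, and 0.00239 to 0.00624 in NTG. Cacna2d2 had 18 to 46 counts in NTG against 2 to 20 in mNrf2-TG (Log2FC -1.59, adjusted p = 0.0607). Cacnb2, the main cardiac β subunit, had 953, 1126, 1010 and 985 counts in NTG and 750, 794 and 994 in mNrf2-TG. The counts overlap before normalization and not after it, at 1033 ± 48.5 and 830 ± 63.4 (Log2FC -0.31, standard error 0.0762, adjusted p = 0.0204). This small decrease was not called without NTG 1, NTG 2, mNrf2-TG 17 or mNrf2-TG 18, with an adjusted p of up to 0.0778. Cacng6, a γ subunit, had 6, 11, 79 and 44 counts in NTG and 31, 7 and 7 in mNrf2-TG, with wide overlap between the groups (Log2FC -1.23, standard error 0.84). Summed over the 18 calcium channel genes, the normalized counts were 4231 to 4769 in NTG against 3692 to 3780 in mNrf2-TG, most of them from Cacna2d1 and Cacnb2.

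**Figure D4:**
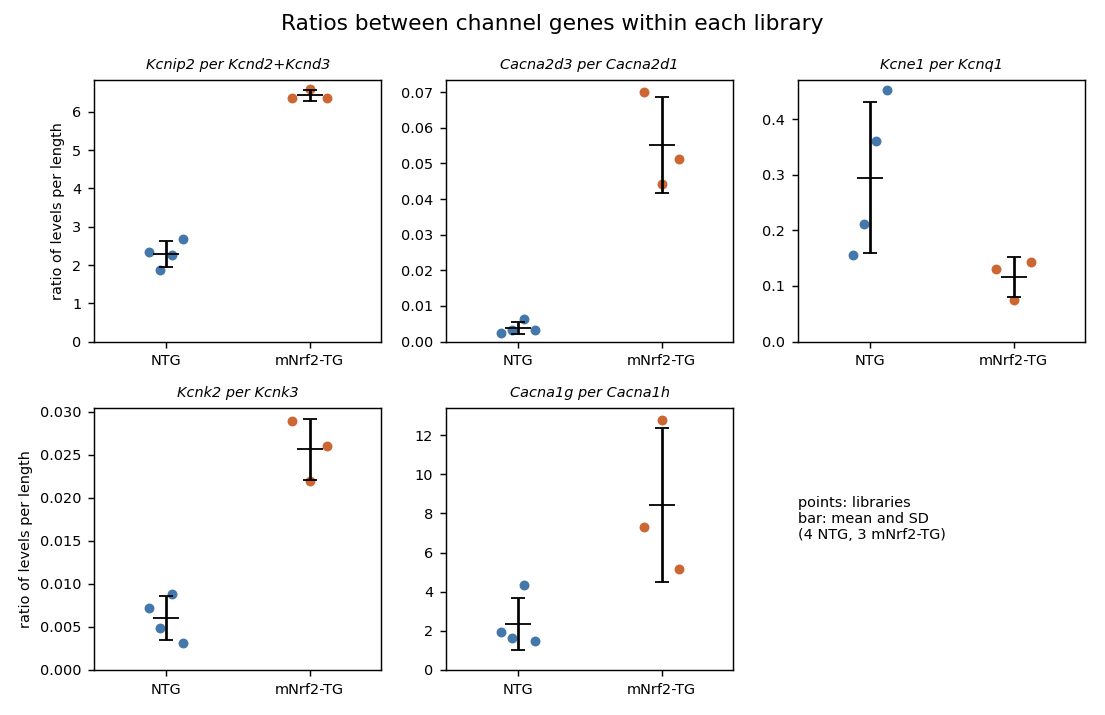
Within-library ratios of levels per length for 5 pairs of channel genes, on linear axes that start at 0. Points are libraries, and the bars give the mean and SD over 4 NTG and 3 mNrf2-TG libraries. The groups do not overlap in any of the 5 pairs, which were chosen after the values of the single genes were seen.

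The pacemaker channel genes Hcn2 and Hcn4 did not pass the test. Hcn2, the most abundant per length at 8.30 CPM per kb, had 173, 193, 252 and 175 counts in NTG and 196, 197 and 205 in mNrf2-TG (Log2FC -0.03, standard error 0.15). Hcn4, the main channel of the sinus node, had 51 to 109 and 45 to 102 counts (Log2FC -0.12, standard error 0.33).

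The TRP genes, which encode nonselective cation channels, had 1 call among 14 (7.14%, beside 17.2% of all genes). Trpc4 had 2, 5, 6 and 3 counts in NTG and 1, 0 and 0 in mNrf2-TG, in total 16 against 1. The NTG to mNrf2-TG ratio was 12.3, with a 95% counting interval of 1.91 to 517 (adjusted p = 0.0410), and DESeq2's Wald test (0.0915) and all 7 fits without a single library (0.0528 to 0.124) did not call it. The abundant Trpm7, a channel with a kinase domain, was level at 646 ± 123 and 636 ± 60.4 normalized counts. Trpm4, a calcium-activated channel of cardiomyocytes, had 125 to 169 counts in NTG against 149 to 205 in mNrf2-TG (Log2FC 0.33, adjusted p = 0.0864). Trpc1 and Trpv2 had Log2FC values of -0.12 and 0.08, and Trpc6 had 1 to 5 counts per library.

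Of the 8 chloride channel genes, Clcn1 was the lower one. Clcn1 encodes the resting chloride channel of skeletal muscle. It had 44, 39, 51 and 54 counts in NTG and 21, 11 and 23 in mNrf2-TG (Log2FC -1.40, standard error 0.28, adjusted p = 0.00864), with no overlap between groups. Among the 7 skeletal muscle markers, Myh1 and Myh4 were lower and 5 were not called, and 3 of the 7 had a Log2FC above 0. The summed normalized counts of the list overlapped, at 649 to 1249 in NTG against 435 to 670 in mNrf2-TG. The part of these markers in the decrease of Clcn1 was not tested. Clcn1 kept its call in all 14 alternatives. It shares 445 exonic bases with Fam131b on the opposite strand, and reads from this pair cannot be told apart if the strand was not used in counting. The intracellular chloride-proton exchangers Clcn3 and Clcn4 had Log2FC values of -0.04 (SE 0.0808) and -0.07 (SE 0.12), and the lysosomal Clcn7 had 0.27 (adjusted p = 0.0719).

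**Figure D5:**
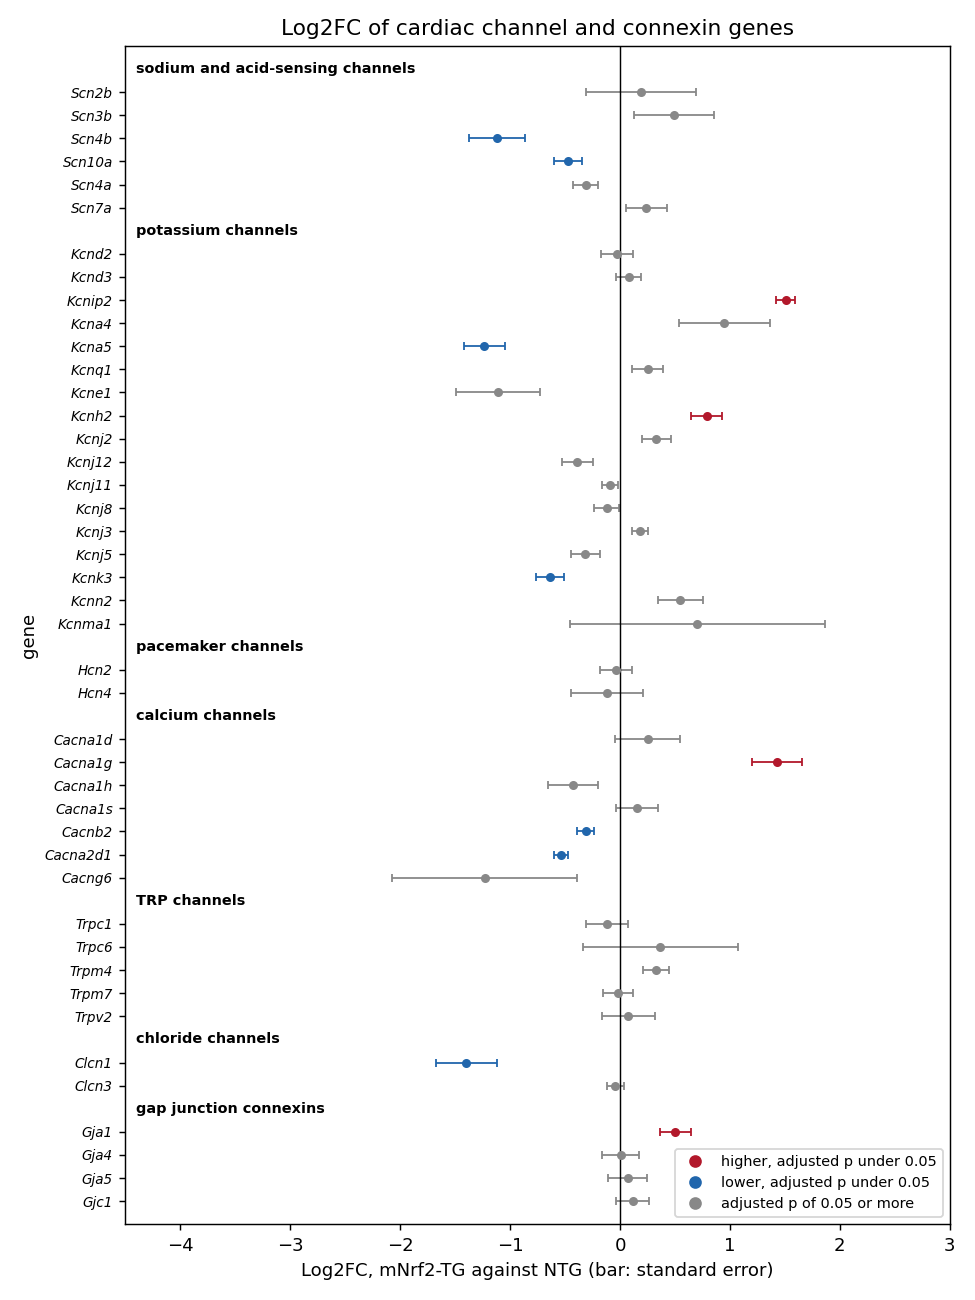
Log2FC of mNrf2-TG against NTG for 43 channel and connexin genes known from the heart, grouped by ion. Points are estimates from edgeR over 4 NTG and 3 mNrf2-TG libraries and bars are standard errors. Kcnip2, Cacna1g, Kcnh2 and Gja1 lie to the right at an adjusted p under 0.05, and Kcna5, Clcn1, Scn4b, Kcnk3, Cacna2d1, Scn10a and Cacnb2 lie to the left.

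Of the 7 connexin genes, Gja1 was higher and the other 6 did not pass the test (14.3% called, beside 17.2% of all genes). Gja1 (chromosome 10, 56377330 to 56402513) had 1921, 2394, 3059 and 3142 counts in NTG and 3774, 3743 and 3923 in mNrf2-TG. The controls fall into a lower pair, NTG 1 and 2, and a higher pair, NTG 3 and 4, and all transgenic libraries were above both. The normalized counts rose from 2661 ± 555 to 3770 ± 260, a Log2FC of 0.50 (SE 0.14, adjusted p = 0.0369 from edgeR). This increase was not called without NTG 1, NTG 2 or any single mNrf2-TG library, with an adjusted p of up to 0.127. Fibroblasts also express Cx43, and 3 of 5 fibroblast markers (Col1a1, Lum and Tcf21) were higher. The summed normalized counts of all 5 were 7239 to 9372 in NTG against 9937 to 10367 in mNrf2-TG. Most of them came from Dcn, which was not called (means of 6149.2 in NTG and 7163.5 in mNrf2-TG). The part of these markers in the increase of Gja1 was not tested. Gja5, of the atrium, conduction system and vessels, had 50 to 65 counts in NTG against 47 to 68 in mNrf2-TG (Log2FC 0.07, standard error 0.18). Gjc1 had a Log2FC of 0.12 (SE 0.15), the endothelial Gja4 had 0.0047 (SE 0.17), and Gjc3 had 1 to 6 counts per library.

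Of 38 measured genes whose proteins work with these channels (pumps, exchangers, scaffolds and regulators), 11 (28.9%) were called. The share was 17.2% over all genes and 20.1% over genes with a mean count of 10 or more. Of the 11, 2 were higher and 9 were lower, beside 8.48% and 8.73% of all genes. The list was chosen with earlier results of these data known, so its share is no test. Its median mean count was 614, against 123 for all genes. Rrad, a small GTPase that restrains calcium channels, had 286, 338, 396 and 591 counts in NTG and 1023, 1168 and 1429 in mNrf2-TG (Log2FC 1.54, adjusted p = 0.000944). Slc8a1, the sodium-calcium exchanger, was also higher (Log2FC 0.77, adjusted p = 0.0215). The lower genes included the sodium pump subunit Atp1b2 (-0.57) with the pump regulator Fxyd1 (-0.40), the sodium channel partners Fgf13 (-0.45) and Gpd1l (-0.35), the scaffolds Ank3 (-0.35) and Dlg1 (-0.32), the kinase Sgk1 (-1.04) and Lgi3 (-1.25), with Log2FC in parentheses. Abcc9, the ATP-sensitive channel partner, was not called (Log2FC -0.09, adjusted p = 0.666).

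Markers of the cell types in the tissue were read beside these results. Of 7 ventricular cardiomyocyte markers, 4 (Myl2, Myl3, Tnni3 and Pln) were lower. The summed normalized counts of all 7 were 622160 to 653408 in NTG against 528427 to 544035 in mNrf2-TG. The immune markers were higher in 3 of 5, with sums of 434 to 534 and 831 to 1164. The endothelial markers were higher in 1 and lower in 2 of 7 (6495 to 7130 and 6118 to 6333), and the pericyte markers were lower in 1 of 4 (2191 to 2936 and 1871 to 2165). None of the 5 smooth muscle markers was called, and their sums, 2655 to 9832 in NTG against 7192 to 11089 in mNrf2-TG, overlapped. NTG 3 had 7707 counts of Acta2, a smooth muscle actin, against 893 to 1894 in the other NTG libraries. The mNrf2-TG libraries had 6026 to 8693, so NTG 3 lay within their range. Wt1, 1 of 3 epicardial markers, was lower, and neither of the adipose markers measured passed the test. The part of these differences in the channel results was not tested.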

How the data were processed

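Stranded libraries of poly(A)-selected RNA from 7 hearts were read from a single end over 50 bases. Alignment by the authors used Novoalign 2.08.01, followed by counting per gene. Both hg19 and mm10 (GRCm38) are named in the methods, and the counting program and its use of strand are not given in the sources used here. The deposited counts are raw reads per gene, and their totals on listed genes (6534684 to 8405857) set the precision. The authors' mean of counts divided by DESeq2 1.32.0 size factors, a signal column, served only to check the join of symbols to counts, from which the recomputed mean differed by a median share of 0.00067. The authors' rlog values and their columns of fold changes and p-values were not used.

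Of 14665 entries, 24 that repeated a gene with identical counts were removed. Genes with a summed count above 1 were compared in edgeR 4.0.16 (R 4.3.3) by TMM scaling and the quasi-likelihood test without covariates, with Benjamini-Hochberg adjustment over all 14637 genes. Normalized counts are TMM-scaled at the mean library size, and CPM per kb divides by the summed exon length in GENCODE M21 (GRCm38). A fold against a group without counts uses a floor of 3 counts per library, and counting intervals are exact binomial at 95%. Floors and intervals cover counting error only. The edgeR p-values set the group difference against the variation between these mice, estimated with information shared across genes. On simulated counts, where 200 of 14606 genes had a true Log2FC of 1.5, the test recovered 98%, and 7.98% of its calls were false. The 200 were drawn only from genes above a minimum mean count, so the recovery does not cover genes with few counts.

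Alternatives were DESeq2 1.42.0's Wald test, limma 3.58.1 voom, edgeR with DESeq2 size factors or with the library total as the scale, edgeR's filterByExpr, a minimum of 10 counts throughout one group, no filter, and leaving out each library. Named are all genes with an adjusted p under 0.05, the most abundant per family and a list of cardiac channel genes. The genes, lists and markers were chosen with earlier results of these data known. Some genes that these rules take in are not reported here. Tables and plots used Python 3.11.15, numpy 2.4.6, pandas 2.3.3 and matplotlib 3.10.9.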

Additional observations from a re-analysis of the deposited data

Results flagged for a closer look

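In 3 of the 63 channel and connexin genes examined for it, a single NTG library lay apart from the other 3 by Dixon's criterion for 4 values, which chance meets in about 1 of 20 groups. Scn10a had 109 normalized counts in NTG 3, against 88.5 to 91.6 in the other NTG libraries. Clcn3 was lowest in NTG 3, at 497 normalized counts against 573 to 581. Asic1 was lowest in NTG 2, at 32.4 against 51.7 to 55.7.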

How the results depend on the processing

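Of the 19 called genes named here, 10 kept the call in each of 14 alternatives (Asic2, Cacna1g, Cacna2d1, Cacna2d3, Clcn1, Kcna5, Kcnh2, Kcnip2, Kcnk2 and Kcnk3). Over the 7 fits without a single library, the number of higher genes ranged from 8 to 14 and that of lower genes from 5 to 9. The number of lower genes was 5 without NTG 1, 6 without NTG 2, and 5 without mNrf2-TG 17 or 18. In the same 7 fits, the calls over all genes, 2519 with every library, ranged from 1373 without mNrf2-TG 17 to 2950 without NTG 3, and the lower ones, 1278 with every library, from 669 to 1479. The cause was not tested, and each of these fits has fewer libraries. Counts beyond 2-fold at an unadjusted p under 0.05 ranged from 17 to 22 without single libraries. The total called was 20 with DESeq2's Wald test, 22 with limma-voom and 17 with a minimum of 10 counts throughout one group. With the library total as the scale, the median Log2FC of all genes shifted to 0.0309 and 21 genes were called, the same genes as with TMM. No paired analysis was possible because the groups share no replicate number. Genes with a few counts per library limit what could be detected.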
